A study of Danio rerio with 26 samples.

Results

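The genes described here were listed as pituitary hormone genes of the zebrafish, together with 1 transcription factor of the gland. They were chosen by name: 10 symbols (prl, prl2, gh1, pomca, cga, tshba, lhb, fshb, pou1f1 and smtla) that matched 11 of the 32105 genes in the deposited count tables, because cga has 2 rows. The samples were 26 brains of male zebrafish, each carrying a label for rotenone, a compound that blocks mitochondrial complex I, so no untreated brain served as a background. The groups were 7 fish of 3 years at 37.5 nM of the strain AB JxTu Tg(flk:mCherry), 9 fish of 1 year at 37.5 nM of the strain AB JxTu, and 10 fish of 1 year at 3.75 nM, also AB JxTu. Age and strain label cannot be told apart in these groups, and neither can concentration and count table, since the 3.75 nM libraries stand in a table of their own. Each title gives a fish number, nothing in the labels speaks of pooling, and the p-values measure the spread between these samples.

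The pituitary hangs below the hypothalamus and is easily included in, or left off, a brain taken out by hand. Its cell types each release their own hormones: somatotropes growth hormone, lactotropes prolactin, gonadotropes luteinizing and follicle-stimulating hormone, thyrotropes thyroid-stimulating hormone, and corticotropes and melanotropes the peptides cut from proopiomelanocortin. Hypothalamic releasing and inhibiting factors set how much is made and released. Proopiomelanocortin is also made by neurons of the hypothalamus itself, so its RNA in a brain need not come from the gland.

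Library totals averaged 27.4 ± 5.49 in units of 1000000 counts in 3 year fish (SD, n = 7), 27.0 ± 3.11 in 1 year fish at 37.5 nM (n = 9) and 26.7 ± 4.26 in 1 year fish at 3.75 nM (n = 10). Levels are given as CPM, counts per 1000000 on TMM-scaled library sizes, and a count of 0 in these libraries allowed a level of up to 0.085 to 0.145 CPM. All 15 rows of a list of hypothalamic genes had counts in every library, except agrp, which was at 0 in 1 library. Marker lists of other tissues stood high in 6 libraries: photoreceptor and pineal genes in replicates 1 and 5 of both 1 year groups, muscle genes in replicate 4 of both, and skin genes also in replicate 4 at 3.75 nM. In bulk RNA, fewer cells of a type and less RNA per cell cannot be told apart.

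Growth hormone RNA was carried by 1 library. The gene gh1 (ENSDARG00000038185) stood at 104.4 CPM in replicate 4 of the 1 year fish at 37.5 nM, with an exact 95% interval of 100.7 to 108.1 for counting error. Across the 7 brains of 3 year fish it ran over a lowest, median and highest level of 0, 0.080 and 0.334 CPM. In the other 8 brains of 1 year fish at 37.5 nM it never passed 0.125 CPM, and in the 10 at 3.75 nM the lowest, median and highest level were 0, 0.102 and 1.53 CPM. Replicate 4 therefore held 3138 of the 3283 gh1 counts of the series, or 95.2% of its summed CPM. No count was recorded in 3 of 7 brains of 3 year fish, in 5 of 9 of 1 year fish at 37.5 nM and in 4 of 10 at 3.75 nM, so apart from replicate 4 the 3 groups overlapped.

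**Figure D1:**
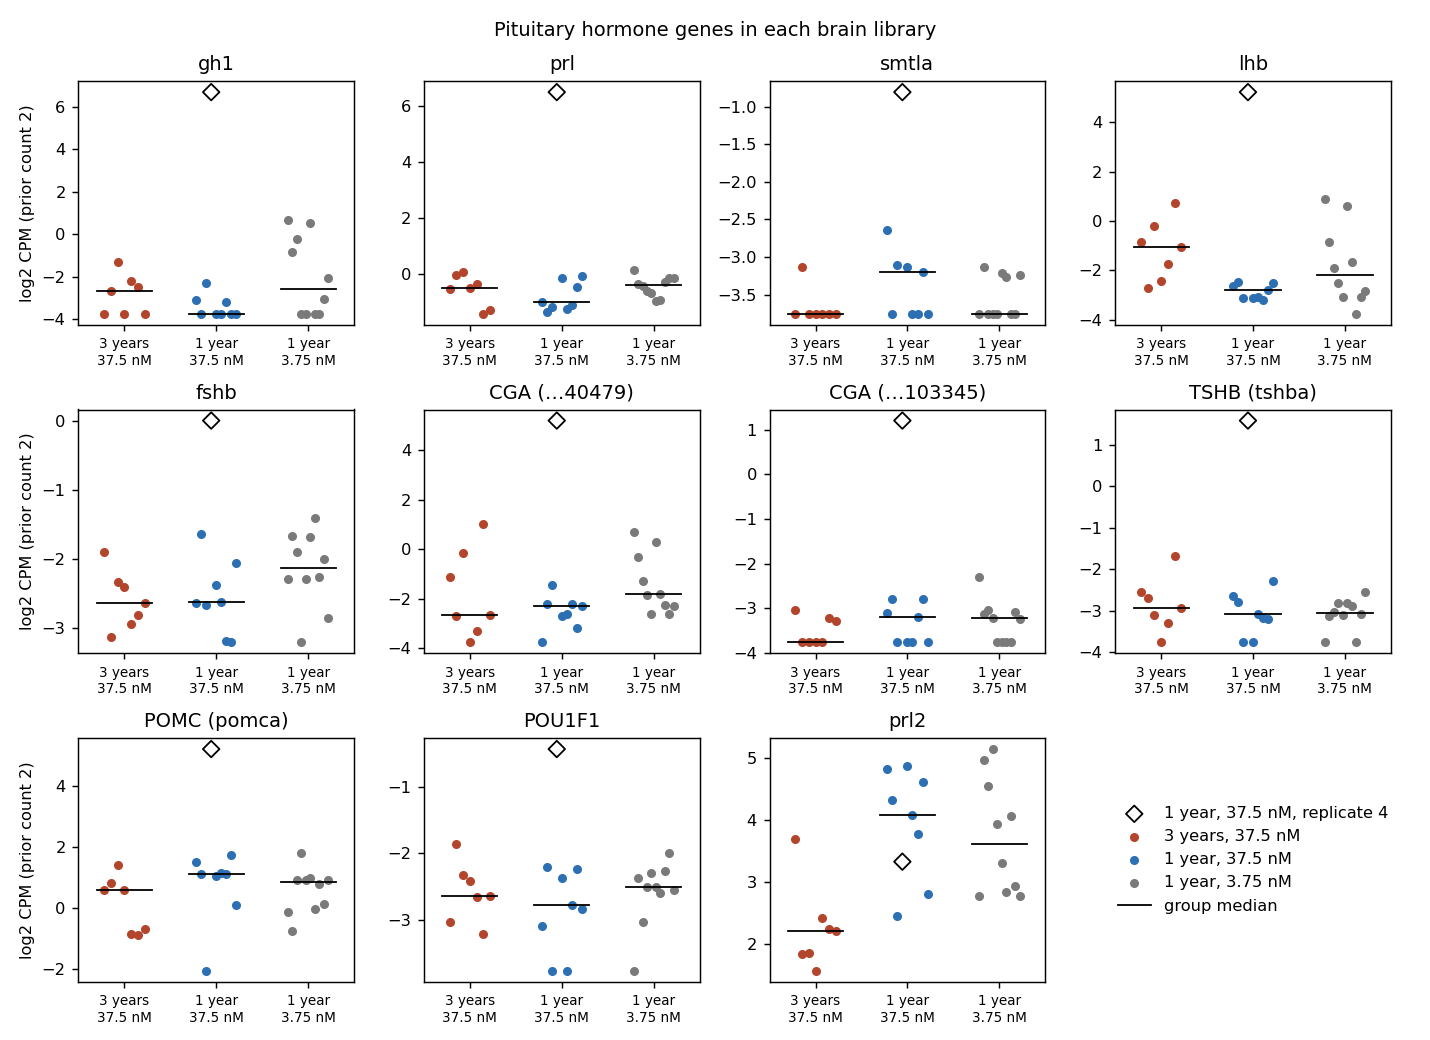
Level of each of the 11 rows (log2 CPM with a prior count of 2, a separate scale per panel) in every library, by group, with the group median as a line. Replicate 4 of the 1 year fish at 37.5 nM, the open diamond, is the highest library in all panels except prl2, where it lies inside its group.

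The prolactin gene prl (ENSDARG00000037946), the hormone of salt balance in fish, showed the same library. It stood at 90.6 CPM in replicate 4 (87.2 to 94.1), which held 2724 of 3145 counts. Without that library the lowest, median and highest level were 0.305, 0.645 and 1.00 CPM in 3 year fish, 0.320, 0.413 and 0.895 CPM in 1 year fish at 37.5 nM, and 0.440, 0.699 and 1.05 CPM at 3.75 nM. These ranges overlapped, and every brain had at least 8 prl counts. The somatolactin gene smtla (ENSDARG00000038191), a relative of growth hormone known from fish, had 15 counts in replicate 4 and at most 2 in any other brain, and no count at all in 6 of 7, 4 of 9 and 6 of 10 brains of 3 year fish, 1 year fish at 37.5 nM and 1 year fish at 3.75 nM.

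The glycoprotein hormones followed. They pair a shared alpha chain, encoded by cga, with a beta chain that gives each hormone its identity. The luteinizing hormone beta gene lhb (ENSDARG00000099363) stood at 37.2 CPM in replicate 4, against a lowest, median and highest level of 0.080, 0.403 and 1.59 CPM in 3 year fish, a highest of 0.107 CPM in the other 1 year fish at 37.5 nM, and 0, 0.148 and 1.76 CPM at 3.75 nM. The row of CGA with the identifier ENSDARG00000040479 stood at 36.7 CPM there, against 0, 0.086 and 1.96 CPM in 3 year fish, at most 0.293 CPM in the other 1 year fish at 37.5 nM, and 0.087, 0.209 and 1.53 CPM at 3.75 nM. Its second row (ENSDARG00000103345) had 67 counts in replicate 4 and at most 4 elsewhere. As the treatment of reads with several matches is not given in the sources used here, the split of counts between the 2 CGA rows is uncertain.

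The thyroid-stimulating hormone beta gene (TSHB in the symbol table, tshba in zebrafish, ENSDARG00000033726) reached 2.93 CPM in replicate 4 from 88 counts, and at most 7 counts in any other brain, that of replicate 6 of the 3 year fish. The follicle-stimulating hormone beta gene fshb (ENSDARG00000010841) was less concentrated in that library. It had 28 counts there (0.931 CPM), and its lowest, median and highest level were 0.040, 0.086 and 0.194 CPM in 3 year fish, 0.035, 0.087 and 0.249 CPM in the other 1 year fish at 37.5 nM, and 0.034, 0.156 and 0.303 CPM at 3.75 nM. Every brain had at least 1 fshb count, and the ranges overlapped.

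Proopiomelanocortin (POMC in the symbol table, pomca in zebrafish, ENSDARG00000043135) stood at 37.4 CPM in replicate 4, but that was 48.3% of its summed CPM, since all other brains carried it too. The lowest, median and highest level were 0.474, 1.44 and 2.59 CPM in 3 year fish, 0.167, 2.11 and 3.32 CPM in the other 1 year fish at 37.5 nM, and 0.521, 1.74 and 3.43 CPM at 3.75 nM. POU1F1 (ENSDARG00000058924), the transcription factor that somatotropes, lactotropes and thyrotropes depend on in mammals, had 20 counts in replicate 4 and at most 5 elsewhere, with no count in 2 of 9 brains of 1 year fish at 37.5 nM and in 1 of 10 at 3.75 nM.

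Replicate 4 of the 1 year fish at 37.5 nM was thus the highest of the 26 libraries for 10 of 11 rows. Summed over all rows other than prl2, it stood at 313.6 CPM, 44.9 times the next library (6.99 CPM, replicate 1 at 3.75 nM). The other 8 brains of its group reached at most 4.40 CPM, and the group medians were 3.21 CPM in 3 year fish, 3.20 CPM in 1 year fish at 37.5 nM and 3.37 CPM at 3.75 nM.

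**Figure D2:**
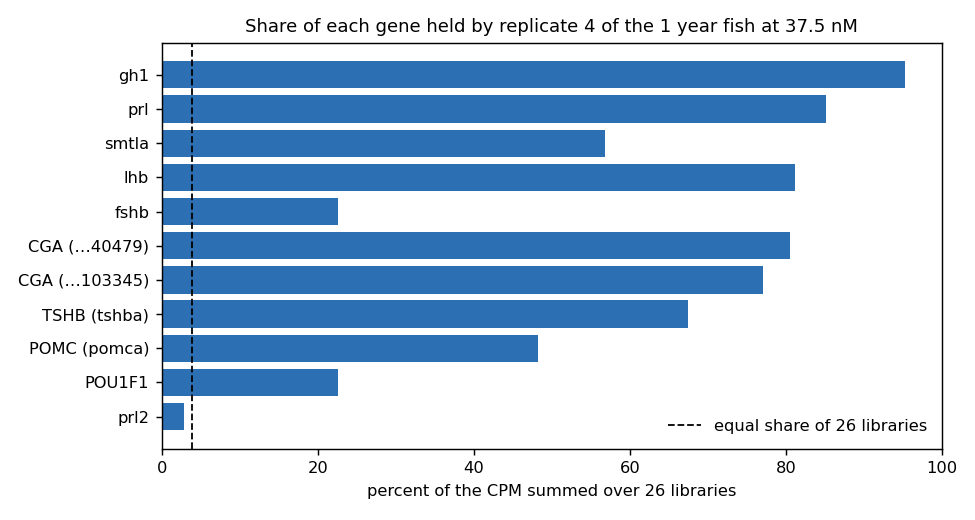
Percent of each row's CPM, summed over the 26 libraries, that lies in replicate 4 of the 1 year fish at 37.5 nM. The dashed line is an equal share; gh1 lies at 95.2% and prl2 at 2.83%.

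Other gene lists were read in the same library. How many of all genes had their highest level there was not counted, so the numbers of rows below have no background share. Of 25 rows of pituitary lineage factors, 4 had their highest level there. Among these 4, LHX3 had 26 counts against 0 to 12 in the other 25 libraries. TBX19, a factor of proopiomelanocortin cells, had 29 against 8 to 25, and pitx3 had 132 against 31 to 95. None of 8 further hormone genes outside the members was highest there, among them pomcb, smtlb, avp and oxt, and neither was any of 26 releasing and inhibiting factors or of 33 receptors on pituitary cells. Of 29 skeletal muscle rows, 16 were highest in replicate 4, whose muscle score stood 4.37 log2 units above the median library and whose summed muscle level was 2343 CPM. The summed muscle level ran from 235 to 310 CPM in 3 year fish, had a median of 270 CPM in 1 year fish at 37.5 nM and ran from 220 to 1768 CPM at 3.75 nM. A large part of the lower sums was 1 row of RYR1 (ENSDARG00000023797), with a median of 178.5 CPM over the 26 libraries. The muscle score of replicate 4 at 3.75 nM stood 3.40 units above the median, while the members other than prl2 summed to 4.56 CPM in that library. Whether muscle and pituitary RNA reached the 37.5 nM library together was not tested.

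A weaker signal of lhb and the first CGA row, with gh1 in some, appeared in a few further libraries. At 3.75 nM, replicate 1 had 54 lhb, 47 gh1 and 47 counts of the first CGA row, and replicate 6 had 43, 41 and 34. Among 3 year fish, replicate 6 had 47 lhb, 3 gh1 and 58 CGA counts, and replicate 3 had 19, 8 and 20. In the same order, prl counts in these libraries were 32, 13, 9 and 24. Those libraries stood highest in their groups for lhb and the first CGA row, and the 8 other brains of 1 year fish at 37.5 nM had 1 to 3 lhb counts and 0 to 7 counts of that CGA row. The lhb level and that of the first CGA row went together across libraries (log2 CPM centred on group means, Pearson r = 0.94 and Spearman rho = 0.74, adjusted permutation p = 0.00055 and 0.0022 over 55 member pairs, n = 26), also without replicate 4 (r = 0.83, adjusted p = 0.00055) and without the 2 libraries farthest from the median (r = 0.83). Within the lower run of title numbers, without replicate 4, r was 0.83 (n = 11), and within the higher run 0.86 (n = 14). The raw p of the first of these, 1e-05, is the smallest that the permutations can give. Without replicate 4, prl did not go with lhb (r = -0.18) or the first CGA row (r = -0.15, adjusted permutation p = 0.834 and 0.934).

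Of the 55 pairs, 5 passed at an adjusted p of Pearson's r under 0.05, all positive, and 2 passed without replicate 4. The second of these was gh1 with the first CGA row (r = 0.87, rho = 0.52, adjusted permutation p = 0.00385 and 0.0683, and r = 0.63 with adjusted p = 0.0421 without replicate 4, and r = 0.60 without the 2 farthest). Its rho without replicate 4 was 0.56 and did not pass (adjusted permutation p = 0.225). The pairs gh1 with lhb (r = 0.90, rho = 0.57, adjusted permutation p = 0.0053 and 0.0683), the second CGA row with lhb (r = 0.83, rho = 0.52, adjusted p = 0.0491 and 0.0683) and POMC with POU1F1 (r = 0.70, rho = 0.46, adjusted p = 0.0491 and 0.175) did not pass without it, at r = 0.69, 0.40 and 0.43, and stood at r = 0.65, 0.32 and 0.27 without the 2 farthest libraries. These last 3 pairs passed only with replicate 4 included. Within the runs, without replicate 4, r was 0.69 and 0.55 for gh1 with the first CGA row, 0.69 and 0.69 for gh1 with lhb, 0.72 and 0.01 for the second CGA row with lhb, and 0.47 and 0.25 for POMC with POU1F1 (n = 11 and 14). prl2 took part in none of the pairs that passed.

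The balance of somatotrope and gonadotrope RNA differed between the libraries that carried it, a comparison chosen after the values were seen and given without a test. Of gh1 and lhb counts together, gh1 made up 29.6% of 27 counts in replicate 3, 38.5% of 13 in replicate 5 and 6.0% of 50 in replicate 6 of the 3 year fish (exact 95% interval 1.25 to 16.5 for the last), and 0 of 10 and 0 of 14 in replicates 1 and 7. The share was 73.7% of 4256 counts in replicate 4 of the 1 year fish at 37.5 nM. At 3.75 nM it was 46.5% of 101 in replicate 1 (36.5 to 56.7), 12 of 24 counts in replicate 2, 80.0% of 20 in replicate 3 and 48.8% of 84 in replicate 6 (37.7 to 60.0). The 5 brains of 3 year fish with at least 10 such counts thus ran up to 38.5%, and the 5 of 1 year fish began at 46.5%. Several intervals overlap across age, and this split was seen only among brains with at least 10 such counts. The remaining 16 brains had fewer. Among them, the 8 other 1 year fish at 37.5 nM together held 5 gh1 and 14 lhb counts, with lhb the larger part, as in the 3 year fish. Of the 1 year fish with at least 10 such counts, 4 were at 3.75 nM, where strain label, concentration and count table differ along with age.

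**Figure D3:**
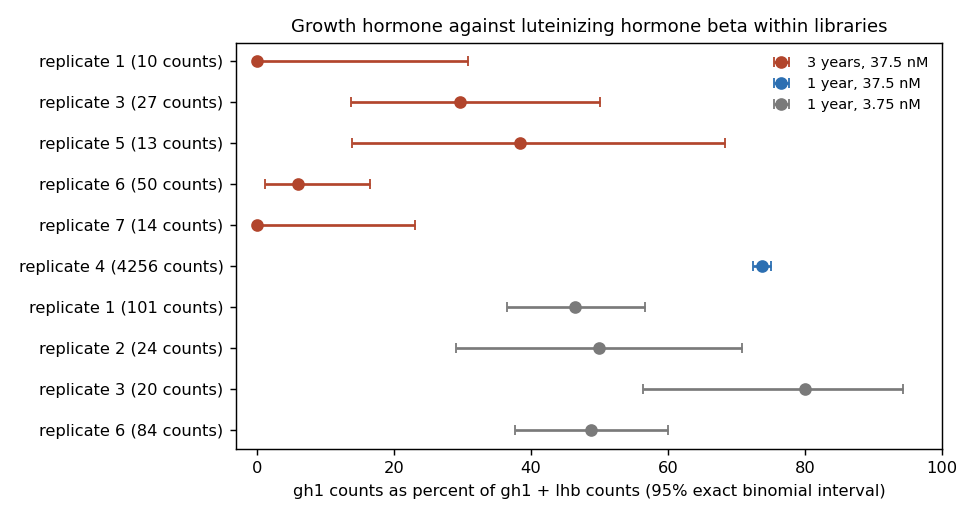
Share of gh1 among gh1 and lhb counts (percent, x axis) in the 10 libraries with at least 10 such counts, by group, with exact 95% binomial intervals that cover counting error only. The 3 year fish shown lie between 0 and 38.5%, the 1 year fish shown between 46.5 and 80.0%. Of these 1 year fish, 4 are at 3.75 nM and 1 at 37.5 nM, so age, strain label, concentration and count table mostly differ together. The 8 other 1 year fish at 37.5 nM, not shown, together held 5 gh1 and 14 lhb counts.

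The second prolactin gene, prl2 (ENSDARG00000018744), behaved apart from the rest. It was lower in 3 year fish than in either group of 1 year fish, and replicate 4 held no excess of it. Whether prl2 RNA came from the gland or from the brain was not tested. The 7 brains of 3 year fish had 12.8, 3.49, 3.55, 2.88, 5.29, 4.64 and 4.52 CPM, in replicates 1 to 7. The 1 year fish at 37.5 nM had a lowest, median and highest level of 5.35, 16.8 and 29.3 CPM, with 9.94 CPM in replicate 4. At 3.75 nM these were 6.72, 12.5 and 35.3 CPM. All brains of 3 year fish except replicate 1 lay below all 19 brains of 1 year fish, 7 of 7 lay below the median of the 1 year fish at 37.5 nM, and 6 of 7 below that of the fish at 3.75 nM.

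**Figure D4:**
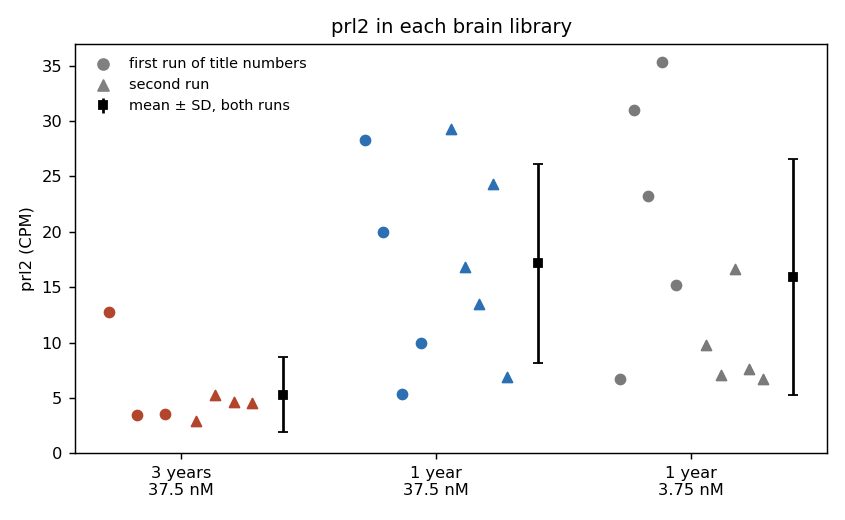
Level of prl2 (CPM, linear axis from 0) in each library by group, with circles for the lower and triangles for the higher run of title numbers, and squares for mean ± SD. Brains of 3 year fish average 5.31 ± 3.39 CPM, against 17.2 ± 8.95 and 15.9 ± 10.6 CPM in 1 year fish at 37.5 and 3.75 nM.

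Between 3 year and 1 year fish at 37.5 nM, prl2 averaged 5.31 ± 3.39 CPM (SD, n = 7) and 17.2 ± 8.95 CPM (n = 9). Its log2 fold change was -1.70 (SE 0.39, adjusted p = 0.0155 by edgeR's quasi-likelihood test with Benjamini-Hochberg adjustment over all genes), a level 3.26-fold lower in 3 year fish. It was the 1 called member of 3 that passed the filter on low counts, while 7.79% of 19887 genes were called in this comparison, 2.87% as lower and 4.92% as higher. The call held in 16 of 16 fits that left out 1 library, with log2 fold changes from -2.08 to -1.57. Within the lower run of title numbers the log2 fold change was -1.28 (edgeR adjusted p = 0.521, 3 against 4 brains) and within the higher run -2.08 (adjusted p = 0.0225, 4 against 5), and the difference between runs was not called (adjusted p = 0.807). What sets these runs of title numbers apart is not stated in the labels.

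Of 15 hypothalamic rows, 2 were called lower in 3 year fish at 37.5 nM, none higher and 13 not at all, where 2.87% of all genes were called lower. Their summed level ran from 205 to 477 CPM in 3 year fish and from 304 to 860 CPM in 1 year fish at 37.5 nM. The score of a list of 15 such genes had a lowest, median and highest value of -1.32, -0.34 and 0.23 log2 units relative to the median library in 3 year fish, and of -1.15, 0.28 and 0.59 in 1 year fish at 37.5 nM. With that score as a covariate, an alternative added after the data were seen, prl2 stood at -1.23 and was no longer called (edgeR adjusted p = 0.0845). The eye and pineal score as a covariate gave -1.28 (adjusted p = 0.0386), and leaving out the libraries with high tissue scores gave -1.47 (adjusted p = 0.0398). No relation between a member and 1 of the 5 tissue scores passed at an adjusted permutation p under 0.05, out of 55 computed (for prl2, largest r 0.52, with skin genes, rho 0.43, adjusted permutation p = 0.174 and 0.354, n = 26, r = 0.36 without the 2 farthest libraries).

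Against the 1 year fish at 3.75 nM, a comparison in which age, strain label, concentration and count table all differ and which shares the 3 year fish with the one before, prl2 averaged 5.31 ± 3.39 CPM in 3 year fish (SD, n = 7) and 15.9 ± 10.6 CPM at 3.75 nM (n = 10). The log2 fold change was -1.59 (SE 0.42, edgeR adjusted p = 0.0323). It was the 1 called of 4 tested members, where 6.68% of 19952 genes were called, 2.25% as lower and 4.43% as higher. The call was lost in 7 of 17 fits with 1 library left out, those without replicates 2, 3, 4, 6 or 7 of the 3 year fish or replicates 2 or 3 at 3.75 nM, with adjusted p up to 0.0681. Within the runs the values were -1.76 (adjusted p = 0.212) and -1.13 (adjusted p = 0.131).

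Between 37.5 and 3.75 nM at 1 year, prl2 averaged 17.2 ± 8.95 and 15.9 ± 10.6 CPM (SD, n = 9 and 10) and did not pass the test (log2 fold change 0.11, SE 0.39, edgeR adjusted p = 0.951). No member of 3 tested was called by edgeR, DESeq2 or limma voom (2 had an unadjusted edgeR p under 0.05, prl and POMC), and 0.0508% of 19691 genes were called by edgeR, 0.0355% as higher and 0.0152% as lower.

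For prl and POMC, fold changes turned on the single library. At 37.5 nM, prl averaged 0.651 ± 0.262 CPM in 3 year fish and a mean of 10.54 CPM with an SD of 30.02 in 1 year fish, with a log2 fold change of -4.03 (SE 1.46, edgeR adjusted p = 0.0974). Without replicate 4 the 1 year mean was 0.533 ± 0.230 CPM and the log2 fold change 0.26 (SE 0.31, adjusted p = 0.643), so the sign turned. Between 37.5 and 3.75 nM, prl stood at 3.93 (SE 1.14, adjusted p = 0.377) with replicate 4 and at -0.37 (SE 0.24, adjusted p = 0.690) without it. One model over all 3 groups called prl in the age comparison (adjusted p = 0.0284), with replicate 4 among its libraries.

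POMC averaged 1.24 ± 0.789 CPM in 3 year fish and 5.90 ± 11.9 CPM in 1 year fish at 37.5 nM. Its log2 fold change was -2.28 (SE 0.87, edgeR adjusted p = 0.116), and -0.68 (SE 0.48, adjusted p = 0.406) without replicate 4. Between 37.5 and 3.75 nM it was 1.91 (SE 0.69, adjusted p = 0.483), and 0.31 (SE 0.39, adjusted p = 0.846) without that library. Between 3 year fish and 1 year fish at 3.75 nM, which do not include it, prl differed by -0.09 (SE 0.26, adjusted p = 0.877), POMC by -0.35 (SE 0.40, adjusted p = 0.656) and lhb by 0.24 (SE 0.79, adjusted p = 0.898), the last at -0.37 without replicate 6 of the 3 year fish. The remaining members had too few counts to pass the filter in any of the 3 comparisons with all libraries of 2 groups. Among them was gh1 with its 1 high library. Of the alternatives, the lower run of title numbers let gh1 pass between 37.5 and 3.75 nM, with replicate 4 included (log2 fold change 5.51). The model over 3 groups let the first CGA row pass.

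**Figure D5:**
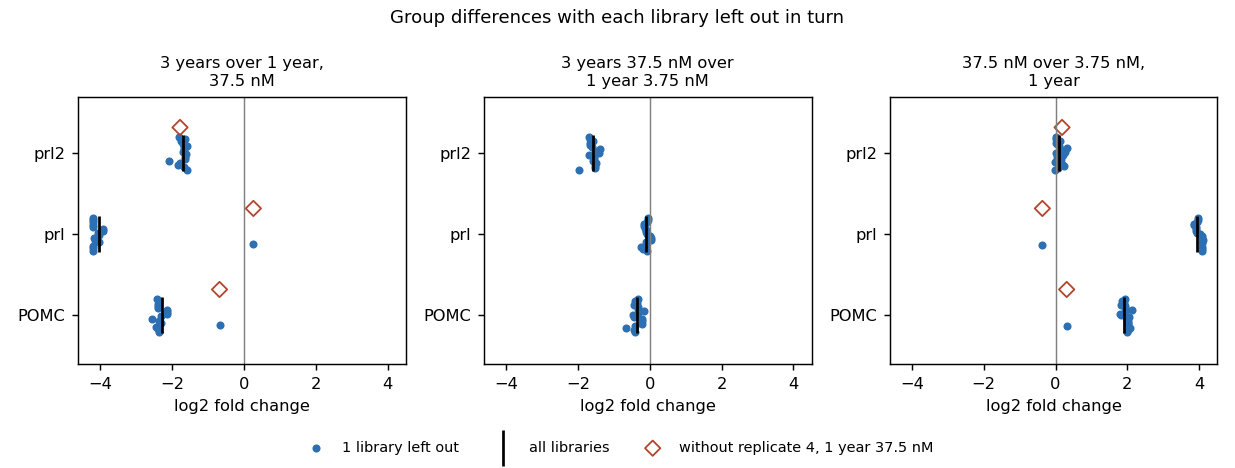
Log2 fold changes (x axis) of prl2, prl and POMC in the 3 comparisons, with all libraries (black bar) and with each library left out in turn (blue points). The open diamonds, without replicate 4 of the 1 year fish at 37.5 nM, lie apart for prl and POMC and beside the bar for prl2.

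Around the hormones, several genes that process prohormones were lower in 3 year fish. Of 10 tested, 4 fell and none rose against 1 year fish at 37.5 nM (40.0% called lower, against 2.87% of all genes; median log2 fold change -0.16, against 0.01 over all genes). This list and those below were chosen with earlier results of these data known, so their called shares are not independent of these data. The convertase genes PCSK1 and PCSK2, also on this list, were not among the 4 called. The granin scg2b, a cargo of secretory granules, averaged 723 ± 82.0 CPM in 3 year fish and 970 ± 128 CPM in 1 year fish (SD, n = 7 and 9; log2 fold change -0.43, SE 0.09, edgeR adjusted p = 0.0069). The convertase inhibitor gene pcsk1nl fell by 0.33 (SE 0.08), CPE, the carboxypeptidase that trims cut prohormones, by 0.16 (SE 0.04), and PAM, which amidates peptides, by 0.17 (SE 0.05) on the log2 scale. The calls of scg2b, pcsk1nl and CPE held with any 1 library left out, and that of PAM was lost in 10 of 16 such fits. With the hypothalamus score as a covariate, scg2b was still called (adjusted p = 0.0283), and pcsk1nl (adjusted p = 0.0697) and CPE (adjusted p = 0.0505) were not. Without the libraries of high tissue scores pcsk1nl was not called either (adjusted p = 0.0637). Against 1 year fish at 3.75 nM, scg2b (-0.35) and pcsk1nl (-0.31) fell as well. There scg2b lost its call without the libraries of high tissue scores and with the hypothalamus score as a covariate (adjusted p = 0.0536 for both), and pcsk1nl with that covariate (adjusted p = 0.0775) and without replicate 2, 4, 6 or 7 of the 3 year fish. These genes are active in neurons throughout the brain, and their part in the gland was not measured.

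Of 30 tested receptors through which pituitary cells are regulated, 25 did not pass in 3 year against 1 year fish at 37.5 nM, 1 was higher and 4 were lower (13.3% lower, where 4.92% of all genes were called higher and 2.87% lower). None of the 33 rows of this list was highest in replicate 4 of the 1 year fish at 37.5 nM. These levels are those of whole brains, and the part of the gland in them was not measured. The dopamine receptor gene drd4b averaged 1.61 ± 0.349 CPM in 3 year fish and 2.72 ± 0.279 CPM in 1 year fish (log2 fold change -0.76, SE 0.14, edgeR adjusted p = 0.0048). Its groups did not overlap, but the share of all genes without overlap was not counted. The call of drd4b held in all 16 fits with 1 library left out. With the hypothalamus score as a covariate drd4b was still called (adjusted p = 0.0120). The estrogen receptor gene ESR1 fell by 0.78 (SE 0.20) and the growth hormone releasing hormone receptor gene ghrhra by 0.84 (SE 0.22). ESR1 lost its call with that covariate (adjusted p = 0.0775) and without replicate 2, 4 or 7 of the 3 year fish, and ghrhra without replicates 2, 3, 6 or 7 of the 3 year fish or replicate 9 of the 1 year fish. The leptin receptor gene lepr (-0.30) and the corticotropin releasing hormone receptor gene CRHR1 (1.00) lost theirs in 11 and 9 of 16 fits. Against 1 year fish at 3.75 nM, ESR1 (-0.72), lepr (-0.28) and drd4b (-0.56) fell and the glucocorticoid receptor gene NR3C1 rose (0.15). ESR1 and lepr kept these calls in all 17 such fits, though lepr lost its with the hypothalamus score as a covariate (adjusted p = 0.0515). NR3C1 lost its call in 4 (without replicate 2, 3, 4 or 7 of the 3 year fish) and drd4b in 12. Without the libraries of high tissue scores, and with that covariate, neither drd4b (edgeR adjusted p = 0.127 and 0.0741) nor NR3C1 (0.0941 and 0.0569) was called.

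Among 28 tested receptors and targets of the hormones, 3 rose, 2 fell and 23 did not pass in 3 year fish against 1 year fish at 37.5 nM (17.9% called, where 7.79% of all genes were). SOCS1 (ENSDARG00000038095), a feedback inhibitor of JAK-STAT signalling that growth hormone, prolactin and many cytokines share, averaged 4.37 ± 2.09 CPM in 3 year fish and 1.92 ± 0.497 CPM in 1 year fish (log2 fold change 1.18, SE 0.24, edgeR adjusted p = 0.0071). The groups did not overlap for SOCS1, again without a count of such genes over the whole series. The signal transducer stat5a rose by 1.12 (SE 0.28) and lost its call without replicate 4 or 7 of the 3 year fish. It was also not called with the hypothalamus score as a covariate (edgeR adjusted p = 0.0878). A melanocortin receptor row, MC5R (ENSDARG00000031348), fell by 0.46 (SE 0.11), and its second row (ENSDARG00000054946) stood at -0.11 (SE 0.25). The calls of SOCS1 and of the first MC5R row held with any 1 library left out and with the hypothalamus score as a covariate (adjusted p = 0.0145 and 0.0346), and those of jak2a (0.23) and TSHR (-0.87) were each lost in 12 of 16 such fits. Against 1 year fish at 3.75 nM, SOCS1 (1.39) and SOCS3 (ENSDARG00000026611, 0.52) rose and the first MC5R row fell by 0.44, the last losing its call in 7 of 17 fits. The other SOCS3 row (ENSDARG00000025428) was not among the rows called. SOCS3 lost its call without the libraries of high tissue scores (adjusted p = 0.0557), as did the first MC5R row (adjusted p = 0.0785).

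Upstream, 2 of 25 releasing and inhibiting factors (8.0%) were lower in 3 year fish at 37.5 nM and none was higher. The called share was near the 7.79% of all genes called in either direction, while 2.87% of all genes were called lower. The median log2 fold change of these factors was -0.35, against 0.01 over all genes, with 20 negative and 5 positive. CRH, the corticotropin releasing hormone, averaged 34.9 ± 5.80 CPM in 3 year fish and 46.1 ± 6.21 CPM in 1 year fish (log2 fold change -0.41, SE 0.11, edgeR adjusted p = 0.0294). UCN, its urocortin relative, stood at -0.41 (SE 0.11). CRH, itself on the list behind the hypothalamus score, lost its call with that covariate (adjusted p = 0.0845) and without replicate 2, 4 or 7 of the 3 year fish, and UCN in 9 of 16 fits. Of 22 lineage factors 2 passed, both lower (9.09%, set against the same shares): GATA2 fell by 0.35 (SE 0.09) and pitx3 by 0.72 (SE 0.19). The median log2 fold change of this list was -0.35, with 18 negative and 4 positive. GATA2 lost its call without replicate 2, 3, 4 or 7 of the 3 year fish, and pitx3 without replicate 4 or 7 of the 3 year fish or replicate 3 or 4 of the 1 year fish. With the hypothalamus score as a covariate and without the libraries of high tissue scores, pitx3 was not called (edgeR adjusted p = 0.0670 and 0.0654). GATA2 kept its call in both (adjusted p = 0.0151 and 0.0371). Among 5 tested further hormone genes none was called by edgeR, DESeq2 or limma voom, and their median log2 fold change was -0.64. The vasotocin gene avp stood at -0.95 (SE 0.44), the 1 of them with an unadjusted edgeR p under 0.05, the prolactin releasing hormone gene prlh2 at -0.64 (SE 0.43) and pomcb at -0.34 (SE 0.24). Against 1 year fish at 3.75 nM, none of 22 lineage factors was called (median log2 fold change -0.19). Of 26 releasing and inhibiting factors 1 was called (3.85%, median -0.24), where 2.25% of all genes were called lower. This was crha, the paralog of CRH, which fell by 1.01 (SE 0.27). Its call was lost in 6 of 17 fits and with the hypothalamus score as a covariate (edgeR adjusted p = 0.0748). Within the lower and higher run of title numbers crha stood at -0.20 and -1.71. Between 37.5 and 3.75 nM, none of the 120 tested rows of the 6 lists was called by edgeR, DESeq2 or limma voom, and 7 had an unadjusted edgeR p under 0.05, among them the lineage factor OTX2 (log2 fold change 0.29, SE 0.10) and stat5a (-0.69, SE 0.25).

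The genes most like the members changed with replicate 4. The 5 members past the filter over the 3 groups were prl, prl2, POMC, the first CGA row and lhb. With all 26 libraries, the 10 genes of 13964 closest to the mean of the 5 members past the filter (group-centred log2 CPM, given as a description) began with atp2a2a (r = 0.87), COX6A1 (0.85), TPM2 (0.84) and FLNC (0.82) and ended with NEB and TTN (both 0.75), several of them genes of the muscle sarcomere. Over the 25 other libraries the list began with OTP (ENSDARG00000058379, r = 0.74), ISL1 (0.74) and TBX2 (0.72). It also held the other OTP row and bsx (both 0.71) and prdx1 (0.70). Which of the 5 members carried these values was not tested. OTP and bsx are transcription factors of the hypothalamus. Closest to prl2 over 26 libraries were prdx1, a peroxiredoxin (r = 0.80), lnc.85 (0.70) and s100v2 (0.66).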

How the data were processed

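The authors deposited whole-number read counts per Ensembl gene, not normalized, in 2 tables, with 1 column for each sample and none without one. Per the labels' protocols, libraries were made with the TruSeq RNA kit v2, which does not mark the strand. The tools featureCounts 1.4.6-p4, STAR 2.4.1d and CASAVA 1.8.2 and the build GRCz10 are named in the submitters' processing notes, without their roles. No source used here gives the annotation release or the strand setting. Deposited RPKM tables were not used. Totals ran from 20.6 to 36.0 in units of 1000000 counts.

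A table of Ensembl identifiers named 26269 of 32105 genes (81.8%). Members matched by symbol or by the symbol without its last letter. Of 146 symbols in 6 gene lists, 131 matched, and 5 marker lists served for other tissues, with a library's score being the mean log2 CPM of a list. The members and lists were chosen with earlier results of these data known. Named genes are every member, of each list those at adjusted p under 0.05 or otherwise up to 3 with the smallest p, and the genes closest in pattern.

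Each comparison used edgeR 4.0.16 in R 4.3.3 (TMM, filterByExpr with a minimum count of 10, robust quasi-likelihood F test, Benjamini-Hochberg adjustment at 0.05 over all genes passing) on its 2 groups without a covariate. SE was taken as log2 fold change over the root of F. Member pairs were compared on log2 CPM (prior count 2) centred on group means, with 100000 permutations within groups. Intervals are exact Clopper-Pearson at 95%, the limit for a count of 0 is 3 counts, and both cover counting error only. Alternatives were DESeq2 1.42.0, limma 3.58.1 voom with quality weights, other size factors, no filter, 1 model over 3 groups, the run of title numbers as covariate or split, each library left out, the libraries with high tissue scores left out, and, added after the data were seen, tissue scores as covariates. The code was tested on simulated counts. Permutations used NumPy 2.4.6 in Python 3.11.15. No sequence is shown, since no sequence table was used here.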

Additional observations from a re-analysis of the deposited data

Results flagged for a closer look

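Across the 11 rows, 33 sets of 1 row in 1 group were examined for a single library far from the others on the log2 scale, and 12 stood out. By its critical values the rule flags about 1 in 20 groups by chance, but where all other libraries are at 0 counts it flags any library with a count. In 9 of them the library was replicate 4 of the 1 year fish at 37.5 nM. Its levels there were 104.4 CPM for gh1, 90.6 CPM for prl, 37.2 CPM for lhb and 36.7 CPM for the first CGA row. The second CGA row stood at 2.23 CPM, TSHB at 2.93 CPM, fshb at 0.931 CPM, POU1F1 at 0.665 CPM and smtla at 0.499 CPM. The remaining 3 lay in other libraries. prl2 reached 12.8 CPM in replicate 1 of the 3 year fish, above the other 6 brains of that group. The second CGA row reached 0.131 CPM, from 4 counts, in replicate 1 of the 1 year fish at 3.75 nM. smtla stood at 0.040 CPM, from 1 count, in replicate 2 of the 3 year fish, the others being at 0.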

How the results depend on the processing

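The call of prl2 as lower in 3 year fish at 37.5 nM held with DESeq2 (adjusted p = 0.000143), voom, other size factors, no filter and any 1 library left out. Counts of called members, 1 as reported, were 2 with 1 model over 3 groups, 0 in the lower run of title numbers and 0 with the hypothalamus score as covariate. Against 3.75 nM fish that count was 0 in either run, without libraries of high tissue scores and with voom, and 0 to 1 with a library left out.

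Genes called between 3 year and 1 year fish at 37.5 nM (1549) numbered 2541 by DESeq2, 16 in the lower run, 959 with the hypothalamus covariate and 943 to 2156 with 1 library left out (943 and 944 without replicates 4 and 7 of the 3 year fish). Against 3.75 nM fish (1332) they numbered 2075 by DESeq2, 255 and 256 within the runs, 667 without libraries of high tissue scores, 732 and 862 with the eye and the hypothalamus covariate, and 874 to 1888 with 1 library left out. Between 37.5 and 3.75 nM (10) they numbered 59 by DESeq2, 18 with 1 model, 24 with the run as covariate, 6 to 12 with 1 library left out, and 0 by edgeR in the higher run and without libraries of high tissue scores (2454 and 2091 at an unadjusted p under 0.05). Member pairs passing (5) numbered 37 without centring, 3 with a prior count of 0.5 and 2 without replicate 4.

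Signs turned, in values that edgeR did not call, for prl between ages at 37.5 nM (0.25 by DESeq2, 0.35 without high tissue scores, -4.20 to 0.26 with 1 library left out) and between concentrations (-0.34, -0.39 and -0.37 to 4.09, and -0.050 in the higher run), for prl2 between concentrations (-0.48 in the lower run, -0.036 with the hypothalamus covariate, -0.026 to 0.32 with 1 library left out), and between 3 year fish and 3.75 nM fish for prl (0.25 in the lower run, 0.085 with the hypothalamus covariate, -0.23 to 0.031), POMC (0.18 in the lower run) and lhb (-0.23 in the lower run, -0.37 to 0.42). For prl with 1 year fish at 37.5 nM, the fits without high tissue scores and in the higher run also lack replicate 4. They thus repeat leaving out that library. DESeq2, run with its default settings, gave prl values near those without replicate 4 (0.25 beside 0.26, and -0.34 beside -0.37). Whether its default replacement of outlying counts acted on that library was not checked. Apart from leaving out replicate 4, the cause was not tested. Of 18 called list genes between ages at 37.5 nM, 6 kept their call with any 1 library left out, 13 without high tissue scores and 6 with the hypothalamus covariate. Of 10 against 3.75 nM fish, these numbers were 5, 5 and 4. No paired analysis was possible because the labels give each fish a number of its own, and replicate numbers here, given in order of accession, only name samples. Most members have under 10 counts in most libraries, so small differences among those libraries lie within counting error. The smallest difference that could be detected at this depth was not computed.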
